A study of Mus musculus with 8 samples.

Results

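The replication initiation sites (ISs) of mouse chromosome 12 were examined, leaving out the stretch from 114400000 to 117300000 (mm9). They numbered 1452 of the 39116 ISs in the merged table of Rif1KO against WT, and 6398 of the 129937 ISs in the merged table of Rif1KO_shMcm6 against Rif1KO_shLacZ. A density from one table could be set beside a density from the other only where 1 IS of each overlapped and neither overlapped a further IS. There were 31564 such one-to-one ISs in the genome, and 1192 of them lay on chromosome 12. The left-out stretch held another 6 ISs, 124 ISs and 4 one-to-one ISs. Chromosome 12 was chosen by measured densities, because its ISs had shown higher values in Rif1KO_shLacZ cells than in Rif1KO and WT cells. The differences between the tables are therefore given as a description, without a test.

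All cells were CH12, a mouse B cell lymphoma line grown with IL4, CD40 and TGF beta stimulation. The 4 groups were WT cells, Rif1KO cells, which lack the replication timing factor RIF1, and Rif1KO cells infected with a lentivirus carrying a short hairpin RNA against LacZ (Rif1KO_shLacZ) or against Mcm6 (Rif1KO_shMcm6). LacZ encodes the bacterial beta-galactosidase and served as the control hairpin, and Mcm6 encodes a subunit of the MCM helicase. RIF1 is thus absent from 3 of the 4 groups, and only the hairpin groups had been through infection. Each group had 2 libraries, made from separately thawed vials, but the tables hold 1 pooled value per group, so no value below carries a replicate error. The Rif1KO line exists as clones, and which clone was used for these libraries is not given in the sources used here.

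Replication starts where MCM helicases loaded in G1 are activated in S phase. Short nascent strand sequencing (SNS-seq) isolates the young leading strands at these places through size selection and an exonuclease that spares RNA-primed DNA. The density of reads at an IS therefore follows how often replication starts there and how many copies of the locus the culture holds. The ISs were called without input and DNA copy number was not analysed here, so in these densities the copy number of a segment and the initiation per copy cannot be told apart. Chromosome 12 of the mouse has its centromere at the low-coordinate end and carries the immunoglobulin heavy chain locus near the other end, inside the left-out stretch. It also carries Fos and Batf, which encode AP-1 transcription factors, the imprinted Dlk1-Dio3 cluster, and Bcl11b, a regulator of T cell development.

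Densities are in log2 RPM, that is log2 of reads per 1000000 reads in the ISs of a table. Each column was centred on its median over the 15 autosomes other than 10, 12, 15 and 16, called the reference autosomes. A difference below is the centred log2 RPM of the group named first minus that of the group named after it, and a fold is taken relative to the median difference of the reference autosomes. The reads behind each value were recovered as whole numbers, 3350255 in the WT column, 3724571 in Rif1KO, 21071351 in Rif1KO_shLacZ and 23602750 in Rif1KO_shMcm6. On chromosome 12 the median IS had 70 WT reads, 78 Rif1KO reads, 147 Rif1KO_shLacZ reads and 167 Rif1KO_shMcm6 reads. Reads can be PCR copies of 1 molecule, so the counting errors and intervals given below cover read sampling only.

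The shift did not cover the whole of chromosome 12. It lay in its distal part, away from the centromere. Over all 1192 one-to-one ISs the median difference of Rif1KO_shLacZ against Rif1KO was 0.06, while the reference autosomes were at -0.08 and the highest of them, chromosome 19, at -0.05. When the ISs were ordered along the chromosome, the single position that best separated lower from higher differences lay between the ISs at chr12:83951901-83952247 and chr12:84052131-84052407. The 726 ISs on the centromere side, called proximal here, had a median difference of -0.11. The 466 ISs on the other side, called distal, had a median of 0.33, a fold of 1.33 relative to the reference autosomes. The position was found from the differences themselves, so the contrast between the segments it makes is again a description.

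The DNA under 8 of the ISs that mark these results is shown first. Letters are the forward strand of NCBIM37 (mm9), with up to 300 bases from the centre of the IS. Capitals mark 4 runs of GGG, or of CCC for the other strand, with 1 to 7 bases of any kind (N) between neighbouring runs. Runs of G of this kind are a common feature of ISs, and 77.2% of all 39116 ISs of the Rif1KO and WT table held at least 1 match on either strand. The first pair lies on either side of the split position, both in introns of Rgs6, which encodes a regulator of G protein signalling.
Last proximal IS, chr12:83951924-83952223: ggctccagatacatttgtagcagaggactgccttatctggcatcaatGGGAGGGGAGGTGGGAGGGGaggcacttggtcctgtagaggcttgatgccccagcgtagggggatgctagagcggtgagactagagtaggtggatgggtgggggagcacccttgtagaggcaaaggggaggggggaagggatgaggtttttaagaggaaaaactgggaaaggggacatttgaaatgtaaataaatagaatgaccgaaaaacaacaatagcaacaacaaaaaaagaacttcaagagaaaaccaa
First distal IS, chr12:84052131-84052407: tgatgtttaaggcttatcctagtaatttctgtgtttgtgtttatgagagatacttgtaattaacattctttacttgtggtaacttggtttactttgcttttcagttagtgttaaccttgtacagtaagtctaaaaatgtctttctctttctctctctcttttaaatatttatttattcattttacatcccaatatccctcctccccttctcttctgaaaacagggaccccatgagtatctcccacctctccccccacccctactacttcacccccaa
The next 3 had the highest differences of Rif1KO_shLacZ against Rif1KO among chromosome 12 ISs of at least median density. They lie in an intron of Rapgef5, 439 bases from a transcription start site (TSS) of Degs2 and 4380 bases from one of Bcl11b, and the last pair is intergenic.
Rapgef5 intron IS, chr12:118826816-118827115: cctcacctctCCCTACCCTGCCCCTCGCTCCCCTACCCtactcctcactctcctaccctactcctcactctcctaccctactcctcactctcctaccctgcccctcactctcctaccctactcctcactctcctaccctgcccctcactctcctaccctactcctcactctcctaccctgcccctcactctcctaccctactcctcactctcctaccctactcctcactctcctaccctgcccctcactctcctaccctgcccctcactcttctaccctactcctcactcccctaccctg
IS near Degs2, chr12:109940987-109941286: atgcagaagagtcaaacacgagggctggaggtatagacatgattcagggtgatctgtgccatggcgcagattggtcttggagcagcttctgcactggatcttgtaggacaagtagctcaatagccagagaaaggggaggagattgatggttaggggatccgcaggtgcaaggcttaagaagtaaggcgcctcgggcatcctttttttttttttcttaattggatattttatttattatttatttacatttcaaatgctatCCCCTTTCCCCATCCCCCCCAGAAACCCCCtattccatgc
IS near Bcl11b, chr12:109246192-109246471: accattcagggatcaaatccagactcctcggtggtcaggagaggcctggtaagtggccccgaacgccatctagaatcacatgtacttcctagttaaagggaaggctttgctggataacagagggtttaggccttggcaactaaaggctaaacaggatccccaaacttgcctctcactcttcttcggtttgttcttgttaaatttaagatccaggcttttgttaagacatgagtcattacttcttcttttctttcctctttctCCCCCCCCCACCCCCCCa
The next, on the proximal segment, had the lowest such difference.
Proximal low IS, chr12:35591736-35592035: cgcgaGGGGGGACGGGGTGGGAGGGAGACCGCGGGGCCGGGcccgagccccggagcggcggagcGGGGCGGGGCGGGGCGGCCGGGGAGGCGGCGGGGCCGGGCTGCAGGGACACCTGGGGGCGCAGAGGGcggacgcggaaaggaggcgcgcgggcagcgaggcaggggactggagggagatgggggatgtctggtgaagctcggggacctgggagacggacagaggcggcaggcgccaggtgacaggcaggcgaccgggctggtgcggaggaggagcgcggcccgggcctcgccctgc
The last pair were the distal ISs of highest mean density, and they moved in opposite directions.
IS between Dlk1 and Dio3, chr12:111203776-111204075: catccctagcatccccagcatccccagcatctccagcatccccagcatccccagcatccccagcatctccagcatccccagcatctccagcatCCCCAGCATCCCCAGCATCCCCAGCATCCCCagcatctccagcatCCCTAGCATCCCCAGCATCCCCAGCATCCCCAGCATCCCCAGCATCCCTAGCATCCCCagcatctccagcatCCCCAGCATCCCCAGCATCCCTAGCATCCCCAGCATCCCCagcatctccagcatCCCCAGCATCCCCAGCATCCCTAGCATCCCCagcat
IS in the Bdkrb2 neighbourhood, chr12:106788442-106788741: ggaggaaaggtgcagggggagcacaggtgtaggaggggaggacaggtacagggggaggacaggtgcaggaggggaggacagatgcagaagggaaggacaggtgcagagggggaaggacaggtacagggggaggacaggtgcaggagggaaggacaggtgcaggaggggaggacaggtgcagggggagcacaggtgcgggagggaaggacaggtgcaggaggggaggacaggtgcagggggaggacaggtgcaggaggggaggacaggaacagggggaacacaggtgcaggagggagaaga
Some of these were tandem repeats: with the sequence set against itself, 95.3% of bases in the IS between Dlk1 and Dio3 agreed at a step of 45 bases, 90.8% in the Rapgef5 intron at a step of 40 and 66.7% in the Bdkrb2 neighbourhood at a step of 36. The 4 ISs near Degs2, near Bcl11b and beside the split reached at most 40.2% at their best step. Only uniquely aligned reads entered the tables, and how the repeats bear on the densities was not tested.

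All 4 comparisons between a hairpin group and a group without a hairpin had this form on the distal segment. The median difference was 0.33 for Rif1KO_shLacZ against WT, 0.33 for Rif1KO_shMcm6 against Rif1KO and 0.36 for Rif1KO_shMcm6 against WT. Relative to the reference autosomes these were folds of 1.32, 1.34 and 1.34. The proximal medians were -0.05, -0.10 and -0.04, which are folds of 1.01, 0.992 and 1.02. Comparisons that share a column share its sampling error. Rif1KO_shLacZ against Rif1KO and Rif1KO_shMcm6 against WT share none, and their distal medians were 0.33 and 0.36. Both still set the hairpin table against the other and share the way each table drew its ISs. The WT column was also used in choosing the chromosome, so these medians are not independent. For the other 3 comparisons the best single position lay further along, between the ISs at chr12:86758850-86759246 and chr12:86761480-86761855, with 757 and 435 ISs on either side.

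No such shift was seen between groups of the same table. In Rif1KO against WT the 543 distal ISs had a median difference of -0.01 and the 909 proximal ISs one of 0.03, beside 0.01 on the reference autosomes. In Rif1KO_shMcm6 against Rif1KO_shLacZ the 2516 distal and 3882 proximal ISs had medians of 0.0016 and 0.0037, beside -0.02. The 1.5-fold threshold of the study was passed upward by 4 distal ISs (0.737%) in Rif1KO against WT, where 2.38% of all ISs and 1.01% of those on the reference autosomes did, and downward by 10 (1.84%), where 2.68% and 1.35% did. In Rif1KO_shMcm6 against Rif1KO_shLacZ 114 distal ISs (4.53%) were higher, where 4.64% of all ISs were, and 37 (1.47%) lower, where 1.62% were. The plot of medians by autosome shows the distal segment above every other autosome in the comparisons between tables, and among the reference autosomes in those within a table.

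Chromosome 12 was not alone in standing apart between the tables. Chromosomes 10, 15 and 16 were kept out of the reference, and their medians minus that of the reference autosomes varied with the comparison. For chromosome 10 this was -0.09 in Rif1KO_shLacZ and -0.11 in Rif1KO_shMcm6 against Rif1KO, and -0.42 in both against WT. For chromosome 16 it was -0.31 and -0.28 against Rif1KO, and 0.03 and 0.05 against WT. For chromosome 15 it was -0.06 and -0.04 against Rif1KO, and 0.09 and 0.13 against WT. Over the same one-to-one ISs the same quantity in Rif1KO against WT was -0.35 on chromosome 10, 0.15 on chromosome 15 and 0.32 on chromosome 16, where the distal segment of chromosome 12 was at -0.03.

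**Figure D1:**
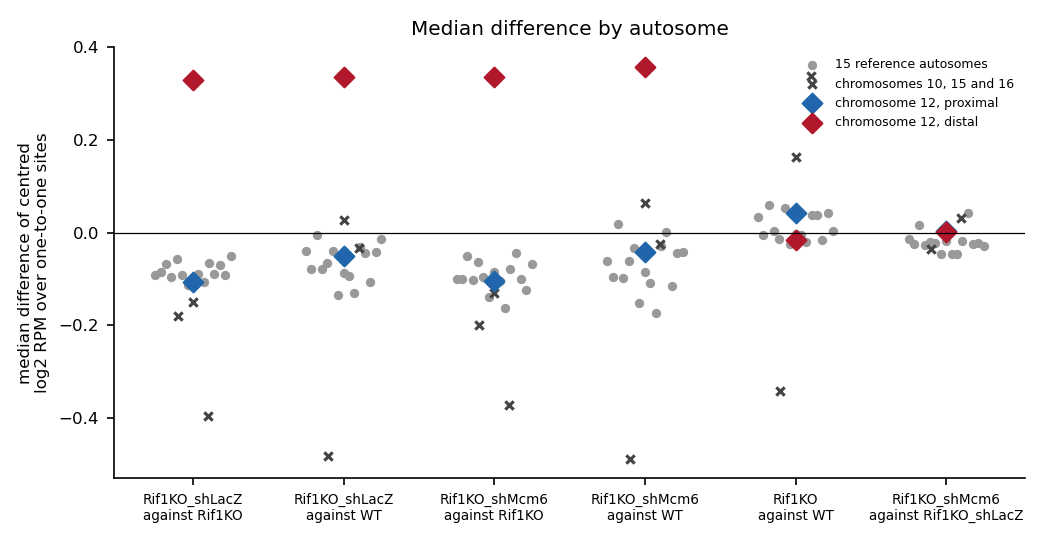
Median difference of centred log2 RPM over one-to-one ISs (vertical axis) in each comparison (horizontal axis), for the 15 reference autosomes (grey points), chromosomes 10, 15 and 16 (crosses) and the proximal and distal segments of chromosome 12 (diamonds). The distal medians are 0.33, 0.33, 0.33 and 0.36 in the 4 comparisons between tables, and the highest reference autosome is at 0.02 in any of these.

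In levels, the distal ISs differed from the reference autosomes in the hairpin groups. Their centred median was -0.04 in WT and -0.05 in Rif1KO, and 0.41 in Rif1KO_shLacZ and 0.40 in Rif1KO_shMcm6. As deposited, the distal median was 4.43 log2 RPM in WT (quartiles 4.06 and 4.89), 4.41 in Rif1KO (4.06 and 4.84), 3.78 in Rif1KO_shLacZ (3.40 and 4.10) and 3.70 in Rif1KO_shMcm6 (3.34 and 4.02). The deposited scale is lower in the hairpin groups because their reads were spread over more ISs, and only centred values were compared between tables. Proximal ISs lay a little under the reference in all 4 groups, at -0.11 in WT, -0.09 in Rif1KO, -0.09 in Rif1KO_shLacZ and -0.07 in Rif1KO_shMcm6.

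The share of reads on the distal segment was also higher in both hairpin groups than in WT and Rif1KO. Of all reads at one-to-one ISs of chromosome 12 and the reference autosomes, distal ISs held 1.82% in WT (95% Wilson interval 1.81 to 1.84), 1.79% in Rif1KO (1.77 to 1.81), 2.34% in Rif1KO_shLacZ (2.33 to 2.35) and 2.36% in Rif1KO_shMcm6 (2.35 to 2.37). These shares rest on 39495, 43113, 141788 and 151623 reads. The segment was drawn from these same densities, and the intervals do not hold the spread between cultures, so the order of the groups is a description. Proximal ISs held 2.59% in WT, 2.66% in Rif1KO, 2.62% in Rif1KO_shLacZ and 2.66% in Rif1KO_shMcm6.

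**Figure D2:**
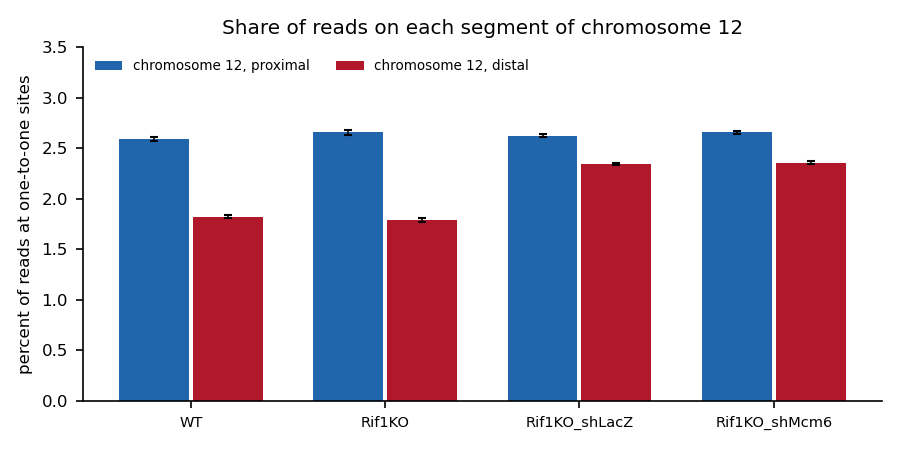
Percent of reads at one-to-one ISs of chromosome 12 and the reference autosomes (vertical axis) that lay on the proximal and distal segments in each pooled group (horizontal axis), with 95% Wilson intervals for read counting as error bars. The distal share is 1.82% and 1.79% without a hairpin and 2.34% and 2.36% with one, while the proximal share stays between 2.59% and 2.66%.

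The whole distribution of distal differences was displaced, not only a tail. In Rif1KO_shLacZ against Rif1KO the distal quartiles were 0.05 and 0.66 and the tenth and ninetieth percentiles -0.23 and 0.95. On the reference autosomes the quartiles were -0.38 and 0.22 and those percentiles -0.64 and 0.53. A difference above 0 was found at 79.2% of distal ISs, at 40.2% of proximal ISs and at 42.4% of reference ISs. Of the 466 distal ISs, 138 (29.6%) were higher by 1.5-fold and 14 lower, while 8.01% and 14.1% of all 31564 one-to-one ISs were. Of the 726 proximal ISs 54 (7.44%) were higher and 80 (11.0%) lower. Over the whole chromosome 192 ISs (16.1%) were higher.

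The other comparisons between the tables gave like counts on the distal segment. In Rif1KO_shLacZ against WT 143 distal ISs (30.7%) were higher and 17 (3.65%) lower, where 9.29% and 14% of all ISs were. In Rif1KO_shMcm6 against Rif1KO 142 (30.5%) were higher and 20 (4.29%) lower, where 9.7% and 16.5% were. In Rif1KO_shMcm6 against WT 152 (32.6%) were higher and 23 (4.94%) lower, where 11.5% and 16.6% were. Counting distal ISs from the position found in these 3 comparisons left 435 ISs and medians of 0.36, 0.35 and 0.37.

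**Figure D3:**
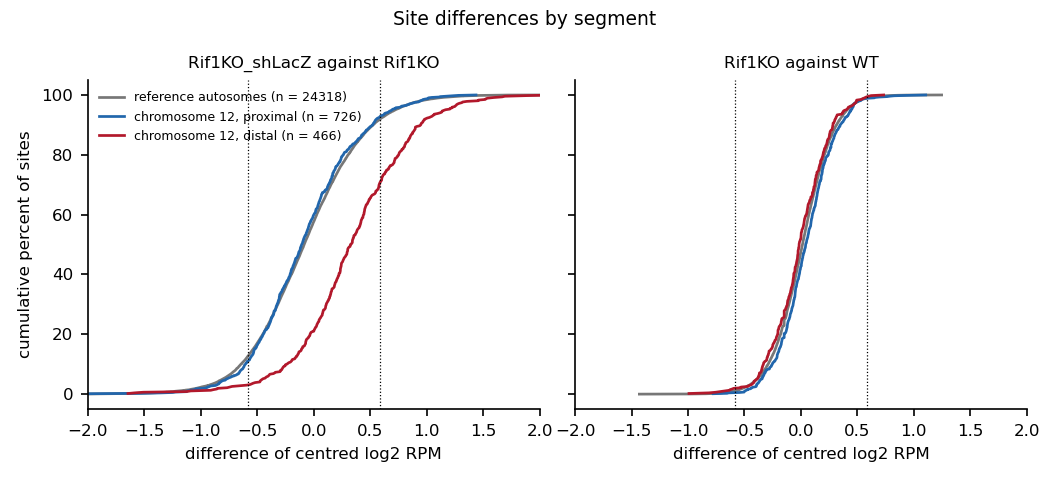
Cumulative percent of one-to-one ISs (vertical axis) by their difference of centred log2 RPM (horizontal axis), for Rif1KO_shLacZ against Rif1KO (left) and Rif1KO against WT (right), with 1.5-fold in either direction as dotted lines. The distal curve is moved to the right along its length on the left, with 79.2% of ISs above 0 against 42.4% on the reference autosomes, and on the right its median is -0.02 beside 0.01.

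The size of the shift depended on how an IS was drawn. By the median, ISs of the hairpin table were wider than their partners in each region, though some single ISs were narrower. Median widths were 439.5 and 826.5 bases at distal one-to-one ISs, 431 and 728 at proximal ones and 446 and 737 on the reference autosomes. The median log2 ratio of the widths was 0.81 on the distal segment, 0.68 on the proximal and 0.65 on the reference autosomes. With density per kb of IS, the distal fold of Rif1KO_shLacZ against Rif1KO fell from 1.33 to 1.196, and in the other comparisons it became 1.17, 1.21 and 1.205. By this measure 65 distal ISs (13.9%) were higher by 1.5-fold, where 2.59% of all one-to-one ISs were. Among pairs that overlapped by at least 50% of both ISs, 60 of 287 distal ISs (20.9%) were higher, where 3.88% of all were.

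Along the chromosome the change from one level to the other took place between about 82 and 87 Mb. Of the windows of 5 Mb with at least 20 one-to-one ISs, the 15 up to 80 Mb had median differences of -0.22 to 0.06 in Rif1KO_shLacZ against Rif1KO. The 7 from 85 Mb on had medians of 0.18 to 0.43. The 382 such windows of the reference autosomes ranged from -0.51 to 0.26, and 5 of the 7 distal windows lay above the highest of them, on chromosome 4 from 60 Mb. The highest distal windows started at 95 Mb (0.41, 51 ISs) and 100 Mb (0.43, 80 ISs), and the lowest at 90 Mb (0.18, 42 ISs). The last window, from 120 Mb to the end, had 8 ISs and a median of 0.71.

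In Rif1KO_shMcm6 against WT, which shares no column with that comparison, the 7 distal windows ranged from 0.10 to 0.66 and the reference windows from -0.74 to 0.35. Of the 7, 3 lay above every reference window. Among the 7, the window from 95 Mb was the highest in this comparison (0.66), in Rif1KO_shLacZ against WT (0.59) and in Rif1KO_shMcm6 against Rif1KO (0.53). Windows of 1 Mb around the boundary did not step once. In Rif1KO_shLacZ against Rif1KO their medians were -0.07 from 81 Mb (15 ISs), 0.28 from 82 Mb (14 ISs), -0.18 from 83 Mb (11 ISs), 0.37 from 84 Mb (8 ISs), 0.24 from 85 Mb (13 ISs) and 0.16 from 86 Mb (17 ISs). In Rif1KO_shMcm6 against WT the windows from 85 and 86 Mb were at -0.17 and -0.02, and all later 1 Mb windows up to 90 Mb were above 0.15. The edge is therefore known to a few Mb, not to a single IS.

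**Figure D4:**
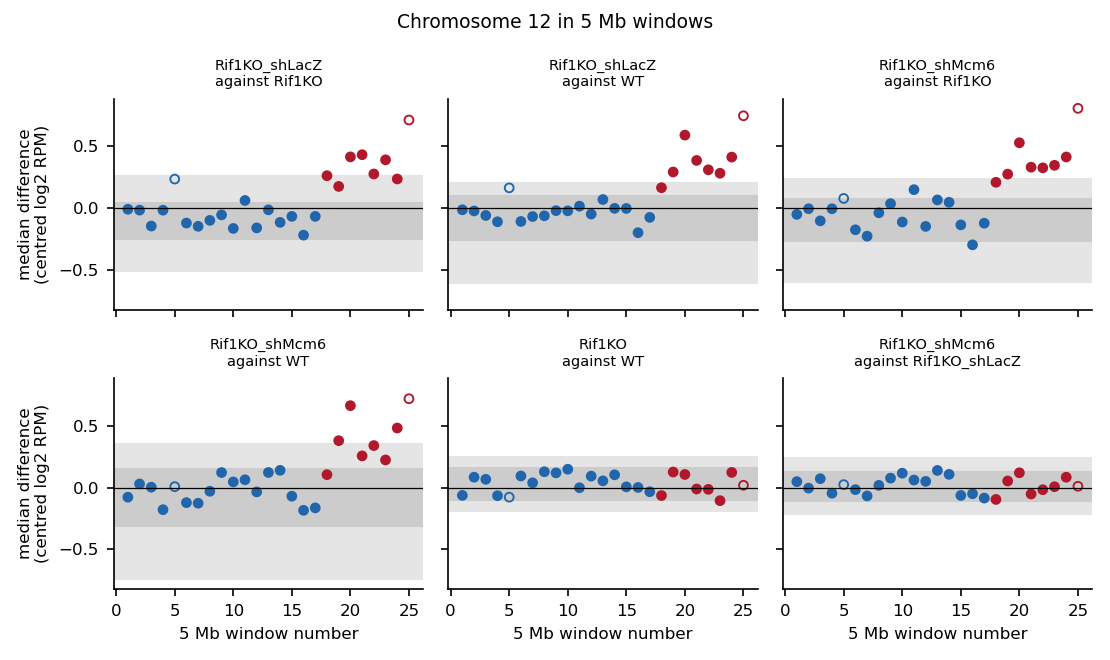
Median difference of centred log2 RPM (vertical axis) in windows of 5 Mb numbered from the centromere end (horizontal axis) for the 6 comparisons. Filled points have at least 20 one-to-one ISs and open points fewer, red points are the windows from 85 Mb on, the window that holds the split is blue, and the grey bands show the full range and the central 90% of windows of the reference autosomes. Filled red points reach 0.18 to 0.43 in Rif1KO_shLacZ against Rif1KO, where the open one is at 0.71, and red points lie among the others in the comparisons within a table.

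The split position fell inside Rgs6, which spans chr12:83717912-84259755 and held 9 one-to-one ISs, all intronic. The last proximal IS had 4.21 log2 RPM in WT, 4.19 in Rif1KO, 2.86 in Rif1KO_shLacZ and 2.72 in Rif1KO_shMcm6, and a centred difference of Rif1KO_shLacZ against Rif1KO of -0.25 (counting SE 0.21). The first distal IS had 3.65, 4.06, 3.27 and 3.36 log2 RPM and a difference of 0.29 (SE 0.21). Both proximal ISs of the gene were below 0, and of its 7 distal ISs 5 were above 0, the highest at 1.06 (SE 0.22), and the other 2 at -0.10 (SE 0.14) and -0.14 (SE 0.20). Of the 9 differences, only the highest was more than 3 counting errors from 0, so single ISs do not place the edge.

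At the ends of the left-out stretch the values on both sides covered like ranges. The 3 ISs before its start, in and beside Brf1, which encodes an RNA polymerase III factor, and in Pacs2, a sorting protein gene, had differences of Rif1KO_shLacZ against Rif1KO of 1.07, 0.19 and -0.03. The 2 ISs just inside had 0.03 and 0.80. At the other end the 2 ISs inside had -0.06 and 0.85 and the 3 after it 0.81, 0.0096 and 0.37. With the 4 one-to-one ISs of the stretch kept in, the median of the chromosome stayed at 0.06.

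In the comparisons between tables, the distal median lay above that of the reference in every class of IS examined. The segment was drawn from these same densities and the classes re-sort the same ISs, so this is a description. The ISs were sorted into 19 classes by gene context, GC content, density, gene number nearby, the G-run motif and presence in the 4 site lists. The distal median of a class lay above the reference median of the same class by 0.36 to 0.48 in Rif1KO_shLacZ against Rif1KO, by 0.31 to 0.49 in Rif1KO_shLacZ against WT, by 0.31 to 0.51 in Rif1KO_shMcm6 against Rif1KO and by 0.22 to 0.52 in Rif1KO_shMcm6 against WT. In the comparisons within a table the same quantity ran from -0.09 to 0.02 and from -0.04 to 0.05. Proximal classes lay from -0.10 to 0.16 of the reference in Rif1KO_shLacZ against Rif1KO, from -0.06 to 0.15 in Rif1KO_shLacZ against WT, from -0.06 to 0.10 in Rif1KO_shMcm6 against Rif1KO and from -0.02 to 0.37 in Rif1KO_shMcm6 against WT. The value of 0.37 was that of the 29 proximal promoter ISs, which in this comparison lay further above the reference than the 26 distal promoter ISs did (0.22).

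By gene context, the 26 distal ISs within 1 kb of a TSS of a protein-coding gene had a median of 0.19, beside -0.20 at the 1508 such ISs of the reference autosomes. The 137 in gene bodies had 0.30 beside -0.08, and the 303 intergenic ISs had 0.36 beside -0.08. The difference varied with the level of an IS on chromosome 12 and on the reference autosomes, and its distance from the reference less so. Distal ISs in the lowest of 3 equal classes of Rif1KO density had a median of 0.60 and those in the highest 0.08, while reference ISs of these classes had 0.15 and -0.32, which leaves 0.45 and 0.40. Classes made from the Rif1KO column share its sampling error with the difference. Distal ISs present in all 4 lists had 0.22 beside -0.15, and the others 0.45 beside -0.02.

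**Figure D5:**
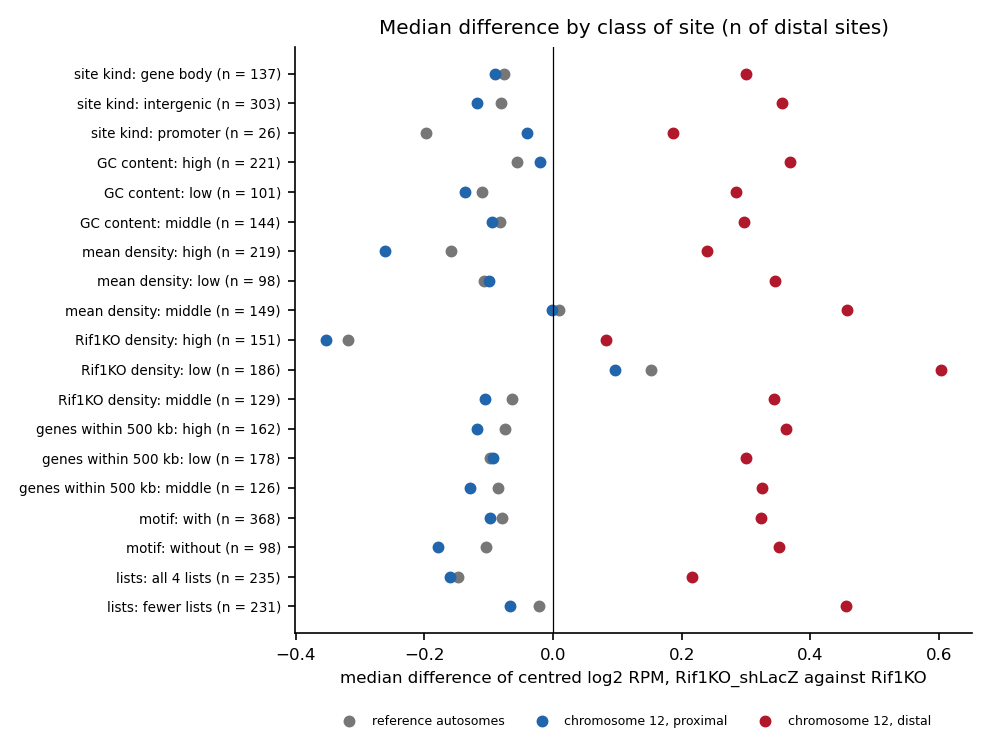
Median difference of centred log2 RPM for Rif1KO_shLacZ against Rif1KO (horizontal axis) in 19 classes of one-to-one ISs (vertical axis, with the number of distal ISs), for the reference autosomes, the proximal segment and the distal segment. The distal median is to the right of the reference median in each class, by 0.36 to 0.48.

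Base composition, gene content and motif content, which the rule did not use, were also compared. In the Rif1KO and WT table its ISs had a median GC content of 49.8%, against 45.1% on the proximal segment and 47.3% on the reference autosomes. They lay near a median of 8 protein-coding genes within 500 kb, against 6 and 8. The G-run motif was found in 80.3% of distal, 79.4% of proximal and 77.6% of reference ISs. In the hairpin table these shares were 73.4%, 79.8% and 77.1%. Promoter ISs made up 5.52% of distal, 4.18% of proximal and 6.77% of reference ISs in the Rif1KO and WT table.

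Differences of single ISs recurred between comparisons with no column in common, on and off the shifted segment. Across distal ISs, Spearman's rho between Rif1KO_shLacZ against Rif1KO and Rif1KO_shMcm6 against WT was 0.76 (466 ISs), across proximal ISs 0.72 (726 ISs) and across reference ISs 0.74 (24318 ISs). Both comparisons set the hairpin table against the other, and so share the way each table drew its ISs, and ISs are not independent replicates. Between the 2 comparisons within tables rho was 0.10 on the distal and 0.07 on the proximal segment.

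The 5 chromosome 12 ISs with the highest mean log2 RPM were mostly lower in Rif1KO_shLacZ than in Rif1KO. Of these, 3 were proximal and 2 distal, and 4 of the 5, with 1 of the distal pair among them, had a difference below 0. A difference above 0 was found at 40.2% of all proximal, 79.2% of all distal and 42.4% of reference ISs. The IS over the start of Cys1, a gene of primary cilia (chr12:25365498-25366768, exon and UTR), had 7.04 log2 RPM in WT, 7.20 in Rif1KO, 5.12 in Rif1KO_shLacZ and 5.02 in Rif1KO_shMcm6, a centred difference of -0.99 (counting SE 0.08). The intergenic proximal ISs at chr12:27849810-27850756 and chr12:78619917-78620947, the latter 108524 bases from a TSS of Fut8, had -0.63 and -0.96. The distal IS in the Bdkrb2 neighbourhood (chr12:106788107-106789077) had 7.08, 6.92, 4.74 and 4.99 log2 RPM and a difference of -1.09 (SE 0.09). The distal IS between Dlk1 and Dio3, in the imprinted cluster and 312956 bases from a TSS of Dio3 (chr12:111203529-111204322), had 6.49, 6.36, 5.82 and 5.56 and a difference of 0.54 (SE 0.09). Over all ISs in the upper class of mean density the distal shift was present, with a distal median of 0.24 and a reference median of -0.16.

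The 3 highest differences among ISs of at least median density were all distal. The IS in the intron of Rapgef5, which encodes an exchange factor for Rap GTPases (chr12:118826805-118827127), had 3.75 log2 RPM in WT, 3.53 in Rif1KO, 4.60 in Rif1KO_shLacZ and 4.86 in Rif1KO_shMcm6. Its centred difference was 2.16 (counting SE 0.23) from 43 Rif1KO and 512 Rif1KO_shLacZ reads. The IS near Degs2, a sphingolipid desaturase gene, had 3.98, 3.63, 4.44 and 4.51 and a difference of 1.89 (SE 0.22). The IS near Bcl11b had 3.90, 3.56, 4.17 and 4.22 and a difference of 1.69 (SE 0.23). In all 3 the IS was drawn wider in the hairpin table, at 118826682 to 118828185, 109939801 to 109941352 and 109245613 to 109246495, which adds sequence to the hairpin value.

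Of the 3 lowest differences among ISs of at least median density, 2 were proximal and 1 was distal. A GC-rich intergenic IS of the proximal segment (chr12:35591530-35592241, 74.3% GC) had 5.82, 5.91, 2.83 and 2.36 log2 RPM and a difference of -1.996 (SE 0.15). The IS over the start of Nova1, which encodes a neuronal splicing factor, had 5.55, 5.32, 2.71 and 3.13 and a difference of -1.53 (SE 0.17). Both were drawn narrower in the hairpin table, which takes sequence from the hairpin values. The partners were 35591755 to 35592433, beside 712 bases in the other table, and 47919661 to 47920166, beside 875 bases. On the centred scale both groups without a hairpin lay above both hairpin groups at both proximal ISs.

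Genes with at least 5 one-to-one ISs in their bodies, a number chosen after the values were seen, showed the same division. The split was found from the differences of these same ISs, so the division by gene repeats it and is a description. All 7 such genes of the distal segment had a median difference of Rif1KO_shLacZ against Rif1KO above 0, between 0.14 and 0.67. Of the 11 proximal genes 2 did, and their medians ran from -0.51 to 0.37. Foxn3, which encodes a forkhead repressor, had the highest distal median, 0.67, with all 6 of its ISs above 0 and 4 of them higher by 1.5-fold. Dnahc11, an axonemal dynein heavy chain gene, had 0.42 with all 5 above 0. Rin3, a Rab5 exchange factor gene, had 0.39 with 5 of 6 above 0, and Unc79, a sodium leak channel component, 0.34 with 6 of 8. Esrrb, an orphan nuclear receptor gene, had 0.19 over 6 ISs, and Eml1, which encodes a microtubule-associated protein, 0.19 over 5 with a range of -0.91 to 1.13. On the proximal side Gphn, the gene of the receptor anchor gephyrin, had 13 ISs and a median of -0.04, Ncoa1, a nuclear receptor coactivator gene, -0.34 over 8, and Syt16 -0.51 over 7. Nbas and Actn1, the genes of a Golgi-to-ER tethering factor and of alpha-actinin, were the 2 proximal genes above 0, at 0.37 and 0.25.

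ISs at the promoters of chosen genes were examined next. Of the 22215 protein-coding genes on the chromosomes of the tables, 8.28% had a one-to-one IS within 1 kb of a TSS, and on chromosome 12 this was so for 27 of 395 proximal genes (6.84%) and 27 of 295 distal genes (9.15%). Of 6 genes for replication, repair, DNA methylation and nucleotide supply (Pole2, Rad51b, Rrm2, Mlh3, Mnat1 and Dnmt3a), 5 lay on the proximal segment, and only Dnmt3a had a one-to-one IS within 1 kb of a TSS. Dnmt3a encodes a de novo DNA methyltransferase, and its IS (chr12:3891337-3891775, exon and UTR) had 4.89 log2 RPM in WT, 4.82 in Rif1KO, 3.91 in Rif1KO_shLacZ and 3.74 in Rif1KO_shMcm6, a difference of 0.18 (SE 0.16). Of 16 B cell and signalling genes, 10 were distal and 2 of these had such an IS, Fos and Yy1. None of the 6 proximal ones did, Nfkbia, Zfp36l1, Id2, Ahr, Arf6 and Max, although Max had an IS in the hairpin table (2.29 log2 RPM in Rif1KO_shLacZ and 2.18 in Rif1KO_shMcm6).

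The Fos IS lay upstream of the gene, 817 bases from the TSS (chr12:86813423-86814023), and had 5.27 log2 RPM in WT, 5.07 in Rif1KO, 4.74 in Rif1KO_shLacZ and 4.69 in Rif1KO_shMcm6. Its centred differences were 0.76 against Rif1KO and 0.56 against WT for Rif1KO_shLacZ, and 0.78 and 0.58 for Rif1KO_shMcm6. Its partner in the hairpin table was wider, at 86813117 to 86814696 beside 601 bases in the other table, which adds sequence to the hairpin values. The IS over the TSS of Yy1, which encodes a zinc finger factor active in B cells (chr12:110031094-110031851), went the other way. It had 5.31 log2 RPM in WT, 4.59 in Rif1KO, 1.92 in Rif1KO_shLacZ and 1.88 in Rif1KO_shMcm6, from 133, 90, 80 and 87 reads. Its differences were -1.59 against Rif1KO (SE 0.22) and -2.30 against WT for Rif1KO_shLacZ. Its partner in the hairpin table was 110031016 to 110031396, which covers less of the IS of the other table (758 bases). Of the remaining distal genes of the list, Akt1, a kinase gene, had an IS in the hairpin table (3.17 and 3.19 log2 RPM) and Siva1 one in the other table, and Traf3, Batf, Bcl11b, Tcl1, Dicer1 and Hsp90aa1 had none within 1 kb.

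Of 6 genes of development and imprinting, Mycn, Sox11, Nkx2-1, Pax9 and Foxa1 were proximal and Dlk1 distal, and none had a one-to-one IS at its promoter. In the hairpin table Mycn, Nkx2-1 and Dlk1 had at least 1, as did 20.3% of all proximal and 29.5% of all distal protein-coding genes. The IS at Dlk1, an imprinted regulator of differentiation, had 3.66 log2 RPM in Rif1KO_shLacZ and 3.76 in Rif1KO_shMcm6. The IS at Nkx2-1, a thyroid and lung transcription factor gene, had 3.31 and 3.91, a centred difference of 0.60 between the hairpin groups, just past 1.5-fold.

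Of 7 long genes, Nrxn3 was distal and Gphn, Npas3, Immp2l, Dock4, Lrfn5 and Prkd1 proximal. The 23 one-to-one ISs in proximal long genes had a median difference of Rif1KO_shLacZ against Rif1KO of -0.04, with 11 above 0 and 1 of the 23 higher by 1.5-fold, where 7.44% of all proximal ISs and 8.01% of all one-to-one ISs were. The 5 in Nrxn3, a synaptic adhesion gene of 1612 kb, had a median of 0.14 and a range of -0.60 to 0.96, below the distal median of 0.33. Nrxn3 held 6 ISs in the Rif1KO and WT table and 80 in the hairpin table. Dock4 and Prkd1 held none in the former and 11 and 7 in the latter.

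The number of listed sites did not separate the segments as the densities did. On the distal segment the lists held 387 ISs in WT, 465 in Rif1KO, 1982 in Rif1KO_shLacZ and 2290 in Rif1KO_shMcm6, and on the proximal segment 566, 774, 3011 and 3520. The Rif1KO_shLacZ list was 4.26 times as long as the Rif1KO list on the distal segment, 3.89 times on the proximal and 3.07 times on the reference autosomes. Against the WT list these ratios were 5.12, 5.32 and 3.96, so the proximal ratio was then the highest. In windows of 5 Mb with at least 20 Rif1KO sites, the ratio of Rif1KO_shLacZ to Rif1KO sites ran from 2.73 to 5.39 in 15 windows up to 80 Mb and from 2.89 to 7.85 in 7 windows from 85 Mb on, and 1 distal window lay above all proximal ones. List length also moves with read depth, which was greater in the hairpin groups, and the part of depth in these ratios was not tested.

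Most hairpin table ISs had no partner in the other table and so no WT or Rif1KO density. These were 2043 of 2516 distal ISs (81.2%), 3137 of 3882 proximal ISs (80.8%) and 75.8% of reference ISs. Their median density in Rif1KO_shLacZ was 2.84 log2 RPM on the distal segment, 2.53 on the proximal and 2.56 on the reference autosomes. In Rif1KO_shMcm6 it was 2.88, 2.58 and 2.59. These ISs are listed through the hairpin groups alone, so their densities say nothing of a difference from WT or Rif1KO. Of the ISs drawn in Rif1KO and WT cells, 466 of 543 distal ISs (85.8%) had a single partner, and 61 (11.2%) had none, against 16.8% of proximal ISs.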

How the data were processed

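SNS-seq reads of 2 libraries per group were trimmed by the authors with Trim Galore (version 0.6.4) and aligned to mm9 with Bowtie (version 1.2.3), keeping unique alignments. They called peaks without input, made consensus sites per condition, kept clustered ones, and merged the sites of each contrast. The deposited merged tables hold log2 RPM, 1 pooled value per condition, scaled to 1000000 reads within the sites of a table. Other deposited columns (the number of merged peaks, a fold-change category) were not used.

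Here 100% of linear values were whole multiples of 1 read within 0.02 reads. Overlaps of at least 1 base were found with bedtools (version 2.31.1). Differences were summarised by medians, with 95% order-statistic intervals kept for the alternatives, and no test was run, since the columns are pooled and the chromosome was chosen from the same values. The split position minimised absolute deviations from 2 medians, with at least 30 ISs on each side, and was checked on simulated reads. Counting SEs take both read counts as Poisson. GC content, motifs and annotation came from NCBIM37 and its GENCODE annotation, with 22380 protein-coding genes and 1 older symbol (Rad51l1 for Rad51b) matched through RefSeq synonyms. ISs named were the 5 of highest mean density, the 3 highest and 3 lowest differences at or above median density, and up to 3 on each side of each end of the left-out stretch. Of these ISs 1, and of the listed genes 2, are not reported here. The members and gene lists were chosen with earlier results of these data known. Alternatives covered centring, low densities, a pseudocount, the left-out stretch, list membership, overlap, IS width and summed density.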

Additional observations from a re-analysis of the deposited data

How the results depend on the processing

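The values rest on pooled columns, so no replicate could be left out. No paired analysis was possible because each table holds 1 pooled value per condition. Without centring, the chromosome 12 medians of the 4 comparisons between tables were -1.02 (Rif1KO_shLacZ against Rif1KO), -1.02 (Rif1KO_shLacZ against WT), -1.08 (Rif1KO_shMcm6 against Rif1KO) and -1.08 (Rif1KO_shMcm6 against WT), since the tables were scaled to different sets of ISs, and 0.336% of ISs were higher by 1.5-fold in Rif1KO_shLacZ against Rif1KO. With the difference itself centred on the reference autosomes the medians were 0.15, 0.14, 0.17 and 0.16, and that share 19.97%. With summed density they were 0.17, 0.18, 0.18 and 0.19. Without the lower quartile of density the median was 0.0181 in Rif1KO_shLacZ against Rif1KO and 0.0470 in Rif1KO_shMcm6 against WT, and the share 12.9%. The share was 3.94% at 2-fold, 9.26% with 50% overlap and 6.46% per kb of IS. Within tables, Rif1KO against WT moved from 0.01 to -0.0030 with centring on all autosomes, and Rif1KO_shMcm6 against Rif1KO_shLacZ from 0.0024 to 0.0109 without centring, 0.0226 with the difference centred, -0.0116 at ISs of both lists and 0.0149 with summed density. The distal median minus the reference median, for which alternatives were chosen after seeing the data, stayed above 0 in all 8 settings of each comparison between tables. Per kb of IS it was 0.26, 0.23, 0.27 and 0.27 in the order above, and with 50% overlap 0.33 in Rif1KO_shLacZ against WT, 0.37 in Rif1KO_shMcm6 against Rif1KO and 0.32 in Rif1KO_shMcm6 against WT. Depth limits single ISs, where a counting SE near 0.2 is common, more than medians over many ISs.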
